A study of Mus musculus with 10 samples.

Results

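The Lce1 group of late cornified envelope genes was measured by 11 probe sets in primary mouse keratinocytes with and without Sgpp1. Its 9 members were Lce1a1, Lce1a2, Lce1b, Lce1c, Lce1d, Lce1f, Lce1h, Lce1i and Lce1l, and every probe set annotated to a member was used, out of 45037 probe sets tested. Lce1a1 and Lce1f had 2 probe sets each and the other members 1 each. All 11 probe sets were brighter on every array labelled KO than on any array labelled WT, with log2 differences of 2.20 to 4.18 and a median of 3.52, an 11.4-fold change. The members were chosen with this comparison known, so those values are a description and carry no test.

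The study asked how Sgpp1, a gene whose product dephosphorylates the signalling lipid sphingosine-1-phosphate, bears on keratinocyte differentiation. The KO group held 5 samples from the skin of Sgpp1-/- mice, numbered 8, 9, 10, 21 and 23, and the WT group 5 samples from Sgpp1+/+ mice, numbered 1 to 5. Both groups were kept in EMEM with 0.05 mM calcium and 8% fetal calf serum, which holds keratinocytes in a largely undifferentiated state, and were harvested after 3 to 4 days. Each sample was read on 1 Affymetrix array of the type Mouse430_2, and the deposited values are log2 intensities per probe set. The labels give no strain, age or sex, and do not say whether samples came from separate animals or cultures, so a p-value below covers the spread among the samples alone, which may be technical.

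The Sgpp1 probe sets did not show a loss of signal in the arrays labelled KO. The probe set 1420821_at averaged 8.79 ± 0.19 in KO and 7.55 ± 0.99 in WT (log2, SD, n = 5 each), a difference of 1.24 with an adjusted p of 0.191 in limma. The other 2 Sgpp1 probe sets were also higher in KO, by 1.15 (adjusted p = 0.156) and 0.51 (adjusted p = 0.198). For each of the 3 probe sets every KO value lay above every WT value, which gives 0.00794 in a two-sided exact permutation test, the smallest p that 5 against 5 arrays allow. Which exons the Sgpp1 allele lacks is not given in the labels, so these probe sets may lie outside the disrupted part, and every direction below rests on the labels.

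The cornified envelope is the cross-linked protein shell that replaces the plasma membrane of keratinocytes as they die to form the outer layer of skin. Late cornified envelope genes encode small proteins rich in glycine, serine and cysteine, which transglutaminases join to that shell late in its assembly. They lie together in the epidermal differentiation complex, a stretch of mouse chromosome 3 that also holds loricrin, involucrin, filaggrin, the small proline-rich proteins and many S100 genes.

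The proximal promoters are shown because the members moved together across arrays and because their sequences resemble each other. RefSeq (GRCm38.p6) gave a promoter for 8 of the 9 members, all but Lce1f. The lines give the last 100 bases before each annotated start, 5′ to 3′ on the gene's strand. Capitals mark ACTGTCTCACAGG and a TAAAA that begins and ends 40 to 20 bases before the start.
Lce1a1, chr3:92648308-92648407, minus strand: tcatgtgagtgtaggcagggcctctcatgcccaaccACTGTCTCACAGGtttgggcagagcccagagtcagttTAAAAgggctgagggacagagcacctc
Lce1b, chr3:92656927-92657026, minus strand: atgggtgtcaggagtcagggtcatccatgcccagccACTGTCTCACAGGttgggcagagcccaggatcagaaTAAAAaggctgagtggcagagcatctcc
Lce1a2, chr3:92670316-92670415, minus strand: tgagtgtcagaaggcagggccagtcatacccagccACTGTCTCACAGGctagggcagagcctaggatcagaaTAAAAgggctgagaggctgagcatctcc
Lce1c, chr3:92679147-92679246, plus strand: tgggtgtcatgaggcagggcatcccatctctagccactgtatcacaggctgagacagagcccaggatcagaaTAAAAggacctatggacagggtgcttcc
Lce1d, chr3:92687211-92687310, minus strand: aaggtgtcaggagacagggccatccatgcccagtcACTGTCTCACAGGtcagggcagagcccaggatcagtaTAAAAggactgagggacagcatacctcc
Lce1h, chr3:92765066-92765165, minus strand: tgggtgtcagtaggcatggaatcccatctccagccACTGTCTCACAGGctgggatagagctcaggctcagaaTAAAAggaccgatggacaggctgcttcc
Lce1i, chr3:92778900-92778999, minus strand: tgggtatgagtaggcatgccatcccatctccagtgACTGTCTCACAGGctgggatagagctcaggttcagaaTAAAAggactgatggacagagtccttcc
Lce1l, chr3:92851287-92851386, minus strand: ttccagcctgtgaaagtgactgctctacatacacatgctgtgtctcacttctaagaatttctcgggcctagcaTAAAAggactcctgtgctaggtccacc
Lce1g and Lce1m, which are not members and did not pass the test between the genotypes, are shown for comparison. Both gave little signal on these arrays.
Lce1g, chr3:92752339-92752438, minus strand: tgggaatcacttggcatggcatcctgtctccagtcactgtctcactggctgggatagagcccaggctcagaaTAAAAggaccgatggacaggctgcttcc
Lce1m, chr3:93019062-93019161, minus strand: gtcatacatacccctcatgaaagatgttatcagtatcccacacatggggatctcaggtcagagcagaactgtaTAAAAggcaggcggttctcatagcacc

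ACTGTCTCACAGG, the longest run shared by at least 6 of the 8 member promoters, was found within 250 bases before the start, on either strand, in 6 of the 8 member promoters, Lce1c and Lce1l being without it. Among 32851 mouse promoters of the same length it occurred in 7, or 0.0213%, and these were the 6 members and Lce1e. It began 64 or 65 bases before the start in each of them. The TAAAA lay in that window in 8 of 8 member promoters and in 5.01% of all promoters. It was not particular to the members, since 18 Lce genes held it, Lce1g, Lce1m and most Lce3 genes among them. Both were picked after the sequences had been seen, and a match is a description of letters, not a site. Of the motifs listed for their known factors, searched on both strands over 250 bases, TATAAA was in 1 member (Lce1d) and in 12.4% of promoters, CACCC in 3 members and 52.0%, and TGANNNNGC in 2 members and 35.2%. TGANTCA, AACNNGTT and TTNNGNAA were in 0 of 8 members, against 6.75%, 3.64% and 36.8% of promoters.

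Alignment of the 250 bases gave 50.5 to 81.3% identity over the 28 pairs of members, with a median of 67.0%. The highest value was between Lce1h and Lce1i. Without Lce1l the 21 pairs had a median of 67.3%, and the 7 pairs with Lce1l reached 50.5 to 55.2%, close to the 47.3 to 57.7% of the 48 pairs of a member and an Lce3 gene. The promoter of Lce1g had 84.5% identity with that of Lce1h and 85.6% with that of Lce1i.

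**Figure D1:**
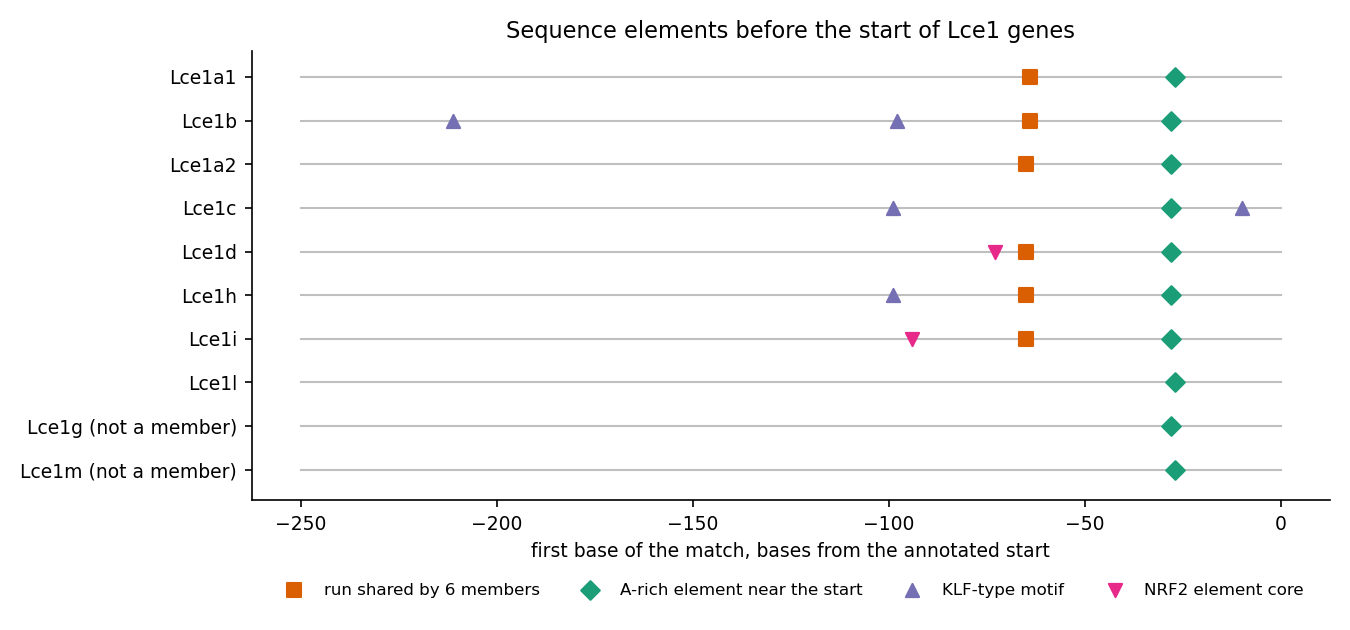
Position of the motifs in the promoters of 8 Lce1 members and of Lce1g and Lce1m. The horizontal axis is the distance in bases from the annotated start to the first base of the match. The run shared by 6 members stands 64 or 65 bases before the start, and the A-rich element stands nearer to the start in every promoter drawn. The KLF-type motif has a match 98 or 99 bases before the start in Lce1b, Lce1c and Lce1h, and further matches in Lce1b and Lce1c.

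Lce1c, the member whose annotated promoter lies on the plus strand, separated the groups widely. Its log2 values were 7.53, 7.76, 8.63, 6.70 and 7.06 on KO 8, 9, 10, 21 and 23, against 2.70, 3.87, 3.76, 2.04 and 4.39 on WT 1 to 5. The KO arrays were all far above the WT arrays, with a gap of 2.31 between the dimmest KO array and the brightest WT array. The means were 7.54 ± 0.74 in KO and 3.35 ± 0.95 in WT (SD, n = 5 each), a difference of 4.18. The WT mean lay under the level of genes not expected in skin, the 95th percentile of 80 smell and pheromone receptor probe sets on each array, which averaged 4.22 in KO and 4.21 in WT. The fold change is therefore a bound, at least 9.69-fold higher in KO.

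Both probe sets of Lce1f had WT means under the receptor level, so their fold changes are bounds. On 1420550_at the values were 8.34, 8.60, 9.30, 7.66 and 7.80 in KO, against 2.19, 4.19, 5.91, 2.78 and 5.86 in WT. The KO arrays lay closer together than the WT arrays, where WT 3 and WT 5 stood well above WT 1 and WT 4. The difference was 4.16, with means of 8.34 ± 0.66 in KO and 4.18 ± 1.71 in WT, a change of at least 10.4-fold. On 1449902_at the values were 6.65, 6.07, 6.96, 5.65 and 5.40 in KO, against 3.17, 3.14, 3.11, 2.30 and 3.67 in WT, and no WT array reached the receptor level. Its difference was 3.07, at least 3.83-fold.

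Lce1a1, the member at the end of the run next to Lce6a, was high on every KO array. Its probe set 1420676_at gave 8.88, 9.43, 10.35, 8.52 and 8.90 in KO, against 3.89, 4.98, 6.37, 3.57 and 7.49 in WT. WT 5 came within 1.03 of the dimmest KO array. The means were 9.22 ± 0.71 in KO and 5.26 ± 1.66 in WT, a difference of 3.96 or 15.5-fold. The second probe set, 1420677_x_at, gave 8.98 ± 0.68 in KO and 5.55 ± 1.38 in WT, a difference of 3.43 or 10.8-fold. On each probe set 3 of 5 WT arrays were above the receptor level, so both folds rest partly on background values. The ending _x_at marks a probe set with probes that can bind other, similar transcripts.

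Lce1a2 and Lce1b, neighbours of Lce1a1 in the gene order, varied over the WT arrays in the same way. Lce1a2 had 8.93, 9.51, 10.69, 8.31 and 8.68 in KO, against 3.67, 5.35, 6.38, 3.80 and 7.19 in WT. Lce1b had 9.99, 10.36, 11.11, 9.22 and 9.41 in KO, against 5.52, 6.20, 7.25, 4.86 and 7.99 in WT. In both genes KO 10 was the brightest KO array and WT 5 the brightest WT array, and the groups did not overlap. The difference was 3.95 for Lce1a2, 15.4-fold, and 3.66 for Lce1b, 12.6-fold. For Lce1a2 3 of 5 WT arrays were above the receptor level, so its fold rests partly on background values, and for Lce1b 5 of 5 were.

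Lce1d, Lce1h and Lce1i were each read by 1 probe set of the _x_at kind, so part of their signal may come from one another or from other Lce1 transcripts. Lce1d had 8.45, 7.76, 9.26, 7.13 and 7.10 in KO, against 3.89, 4.58, 4.63, 3.21 and 5.80 in WT, a difference of 3.52. Lce1i had 8.40, 8.41, 9.33, 7.44 and 7.14 in KO, against 5.12, 5.03, 5.67, 4.73 and 6.18 in WT, a difference of 2.80 or 6.96-fold. In both, KO 21 and KO 23 were the dimmest KO arrays and still lay above WT 5.

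Lce1h stood closest to an overlap. Its values were 6.63, 6.98, 8.65, 6.09 and 6.34 in KO, against 5.72, 3.95, 4.63, 3.65 and 5.74 in WT. WT 1 and WT 5 came near KO 21, with a gap of 0.34, and KO 10 stood well above the other KO arrays. The means were 6.94 ± 1.01 in KO and 4.74 ± 0.97 in WT, a difference of 2.20 or 4.59-fold. For this gene 4 of 5 WT arrays were above the receptor level.

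Lce1l, which lies beyond Kprp and apart from the other members in the gene order, was dim in WT. It had 6.01, 6.37, 7.52, 4.98 and 5.63 in KO, against 3.53, 3.51, 3.71, 3.14 and 4.50 in WT. The lowest KO value stood 0.48 above WT 5. The means were 6.10 ± 0.94 in KO and 3.68 ± 0.50 in WT, a difference of 2.42, at least 3.53-fold.

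**Figure D2:**
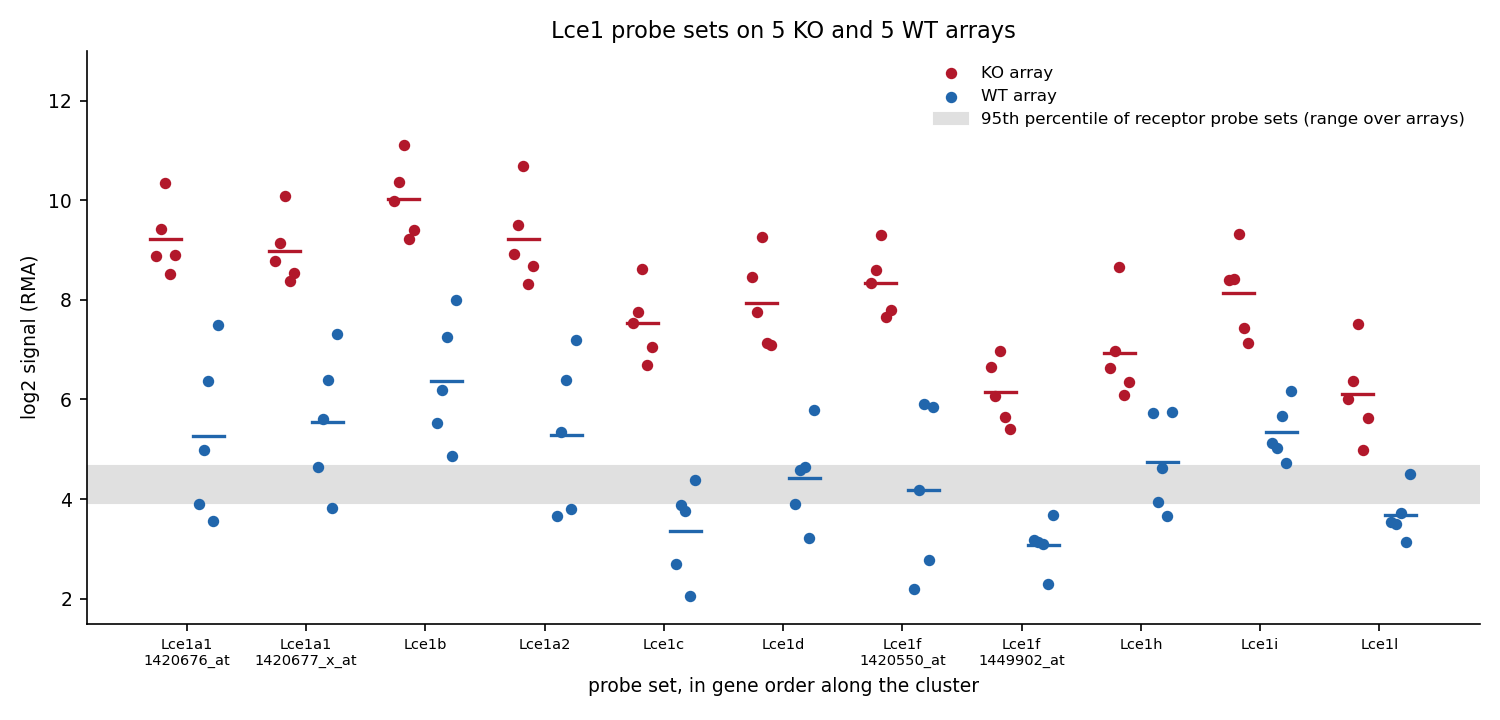
Log2 value of each of the 11 Lce1 probe sets on each array, KO arrays beside WT arrays, with 1 point per array, a line at the group mean and a grey band for the receptor level. Every KO point lies above every WT point of the same probe set, with the smallest gap, 0.34, in Lce1h.

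Across the 11 probe sets, 11 of 11 had all KO arrays above all WT arrays, where 2.28% of all probe sets did. In limma with Benjamini-Hochberg adjustment over all probe sets at a threshold of 0.05, 10 of 11 passed as higher in KO, all but Lce1h, where 1.13% of all probe sets passed as higher. Because the members were picked from this comparison, nothing is read from either count. The median difference over all probe sets was -0.02. With values under the receptor level raised to it, the members' median was 3.28. In bulk RNA, fewer cells of a type and less RNA per cell cannot be told apart.

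The number that the sample titles give each array limits these values. It was 6 to 10 for the KO samples and 1 to 5 for the WT samples, and the labels do not say what it stands for, so whatever it marks and genotype cannot be told apart. With that number as a covariate the members' median difference was 1.55 and 0 of 11 passed, with 2 of 11 below an unadjusted p of 0.05. That fit was less precise, with a median SE over the members of 0.91, against 0.52 without the covariate. Of all 45037 probe sets 0 passed, and 1242 were higher and 591 lower at that unadjusted level. Without the 3 arrays with the highest poly-A spike-in signal (KO 8, WT 1 and WT 2), the members' median was 3.27. In that fit 2 of 11 passed, 1 probe set each of Lce1c and Lce1f, and 11 of 11 were below an unadjusted p of 0.05. The 11 of 11 carries no test, since the members were picked from this comparison. Among all probe sets 375 passed as higher and 28 as lower, with 3054 higher and 2497 lower at the unadjusted level. Fewer arrays entered that fit.

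Within each group the members varied together from array to array. KO 10 was the highest KO array in 11 of 11 probe sets, and the lowest was KO 21 in 8 and KO 23 in 3. WT 5 was the highest WT array in 10 of 11, with WT 3 highest in the other, and the lowest was WT 4 in 9 and WT 1 in 2. The mean over the 11 probe sets was 8.05, 8.22, 9.26, 7.28 and 7.46 on the KO arrays, against 4.00, 4.58, 5.26, 3.44 and 6.01 on the WT arrays. The array numbers in the titles were 6 for KO 21, 7 for KO 23, 8 for KO 8, 9 for KO 9 and 10 for KO 10. In that order the KO means rose at each step. The WT means, on arrays 1 to 5, rose at each step but for the drop at WT 4. The cause of this order was not tested.

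All 11 probe sets were above the receptor level on each KO array, while on WT 1 to 5 the numbers above it were 3, 8, 8, 2 and 10. The spread between arrays was larger in WT in 7 of 11 probe sets, with SDs of 0.66 to 1.01 in KO and 0.49 to 1.71 in WT. After each group's mean was taken away, every probe set followed the mean of the other 10 over the 10 arrays, with Pearson's r between 0.66 for Lce1h and 0.986 for Lce1b. That is a description of arrays that share their RNA, and cross-binding between similar transcripts also raises it.

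**Figure D3:**
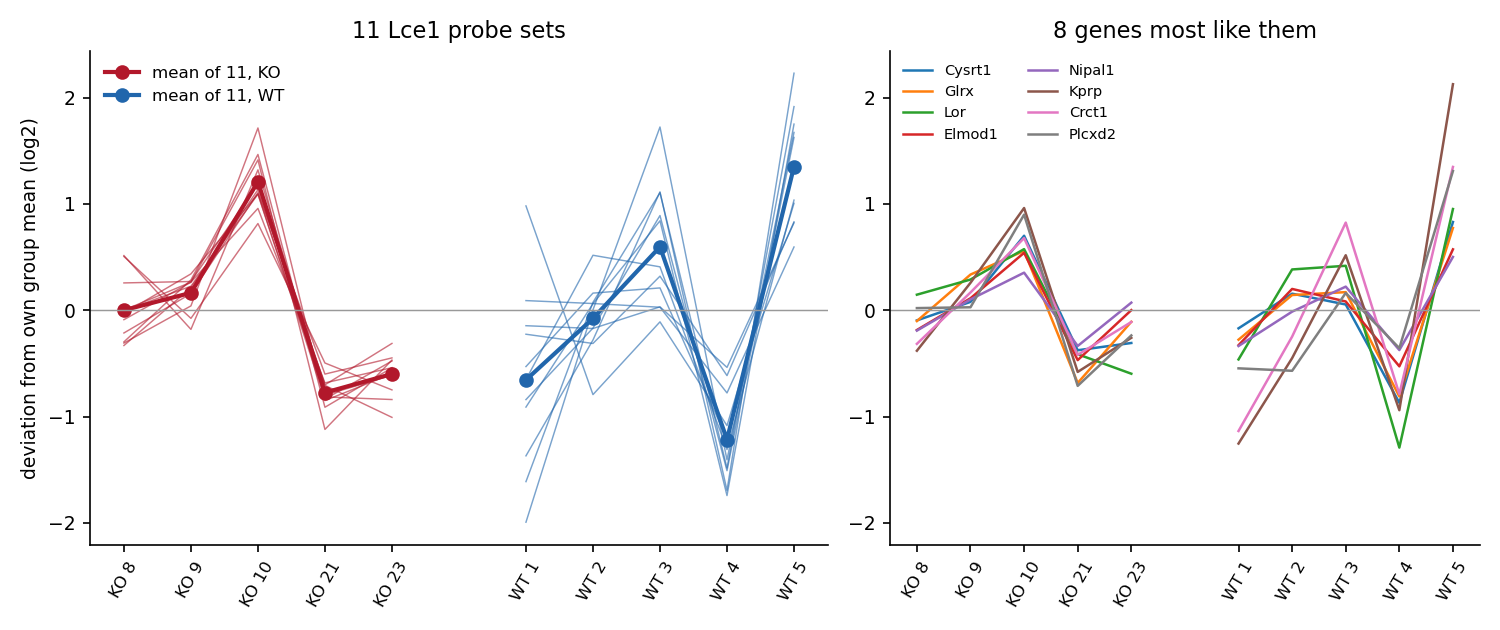
Deviation of each Lce1 probe set from its own group mean (log2) on each array, KO arrays left of WT arrays, 1 line per probe set, with the mean over the 11 drawn heavily. The right panel gives the same for the 8 genes most like them, named below. KO 10 and WT 5 lie highest in their groups, with mean deviations of 1.21 and 1.35, and WT 4 lies lowest with -1.22.

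Signal from Y-linked genes was present on KO 10, KO 23, WT 3 and WT 5 and absent from the other 6 arrays. The mean of the WT arrays with it exceeded the mean of those without it in every member probe set, by 0.52 to 2.83, and the same difference of means was 0.06 to 0.93 in KO. Single arrays did not follow: KO 23 was among the 2 lowest KO arrays in 10 of 11 probe sets, so the KO difference rested on KO 10. WT 3 lay below WT 1 in Lce1h and in Lce1f 1449902_at, and below WT 2 in Lce1c and in Lce1f 1449902_at. Among arrays with the signal (2 KO and 2 WT) the KO minus WT differences were 2.31 to 3.77 with a median of 2.67, and among those without it (3 KO and 3 WT) they were 2.13 to 5.15 with a median of 4.08. Since no KO array overlapped any WT array, the direction within each set was fixed beforehand. This split was chosen after the data had been seen and the differences between its sets were not tested.

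By their deviations from their group means over the 10 arrays, the genes most like the members were Cysrt1, Glrx, Lor, Elmod1, Nipal1, Kprp, Crct1 and Plcxd2, out of 8137 probe sets compared. Cysrt1 had the highest likeness, with Pearson's r = 0.952, and human CYSRT1 is known to bind late cornified envelope proteins. It had 9.50, 9.67, 10.29, 9.22 and 9.28 in KO, against 7.60, 7.93, 7.83, 6.90 and 8.60 in WT. KO 10 and WT 5 were again highest and WT 4 lowest. In the order of array number its KO values also rose at each step. Its difference was 1.82 (SE 0.29, adjusted p = 0.00747 in limma). The call was lost without the 3 arrays with the highest poly-A signal (adjusted p = 0.0861).

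Glrx, which encodes glutaredoxin, had r = 0.936, and a second probe set of Lor, the gene of the envelope's main protein loricrin, had r = 0.930. Kprp, which encodes a proline-rich keratinocyte protein and lies among the Lce1 genes, had r = 0.911. It gave 8.88, 9.52, 10.22, 8.68 and 9.0 in KO, against 4.43, 5.23, 6.20, 4.74 and 7.81 in WT. The KO arrays all lay above WT 5, and the difference was 3.58 (SE 0.55, adjusted p = 0.00585). Without the 3 poly-A arrays Kprp was not called (adjusted p = 0.0752). Crct1, which lies beyond the Lce3 genes, had r = 0.900 and a difference of 1.95 (adjusted p = 0.0464). Its call was lost in 8 of 10 fits that left out 1 array, with adjusted p up to 0.145, and without the 3 poly-A arrays (adjusted p = 0.212).

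Plcxd2 did not pass, with a difference of 1.41 (adjusted p = 0.109). Each group's mean was taken away before the likeness was measured, but genes had to reach a mean of 6 in a group to be compared, and Lor 1420184_at, Kprp and Plcxd2 did so in KO and not in WT. The KO minus WT differences of these genes are therefore not independent of how they were found. Without WT 5, the array farthest from its group mean, 4 of the 8 stayed among the 8 most alike, and r for Cysrt1 was 0.925.

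The other Lce genes differed among themselves. By RefSeq gene order, Lce1a1, Lce1b, Lce1a2, Lce1c, Lce1d, Lce1e, Lce1f, Lce1g, Lce1h, Lce1i, Lce1j and Lce1k follow one another, then Kprp, Lce1l and 2310050C09Rik, then Lce3a to Lce3f, Crct1 and Lce1m. Of 12 other Lce genes, 6 had a probe set, and of these 2 passed as higher in KO and 0 as lower in limma, with a median difference of 1.17. At an unadjusted p under 0.05 the numbers were 4 higher and 0 lower. Among all probe sets 0.142% passed as lower, beside the 1.13% that passed as higher. This is the same contrast in the same arrays, and the genes are relatives of the members, so it is not independent of them.

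Lce1g, which lies between Lce1f and Lce1h, gave little signal. It had 3.94, 4.13, 4.92, 3.60 and 3.42 in KO, against 3.17, 3.09, 3.38, 3.08 and 3.30 in WT. The groups did not overlap, but most values lay at or under the receptor level, and the difference of 0.80 did not pass (SE 0.24, adjusted p = 0.187). Lce1m, at the far end beyond Crct1, differed by 0.38 (adjusted p = 0.526) with overlapping groups. It also gave little signal, with means of 4.26 in KO and 3.88 in WT, and 3 KO arrays and 1 WT array above the receptor level.

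Among the Lce3 genes, which in human skin are known for their induction after barrier damage, Lce3a and Lce3f passed. Lce3a had 6.67, 6.96, 7.81, 6.27 and 6.34 in KO, against 4.54, 4.18, 3.72, 4.14 and 6.16 in WT. Its difference was 2.26 (SE 0.42, adjusted p = 0.0189), and WT 5 stood far above the other WT arrays. Lce3f differed by 2.51 (SE 0.53, adjusted p = 0.0385), Lce3c by 1.54 (adjusted p = 0.0550) and Lce3b by 0.52 (adjusted p = 0.565). The call of Lce3f was lost in 9 of 10 fits that left out 1 array, and that of Lce3a in the fits without KO 9, KO 10 or WT 4. Without the 3 poly-A arrays both calls were lost (adjusted p = 0.165 for Lce3a and 0.202 for Lce3f).

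**Figure D4:**
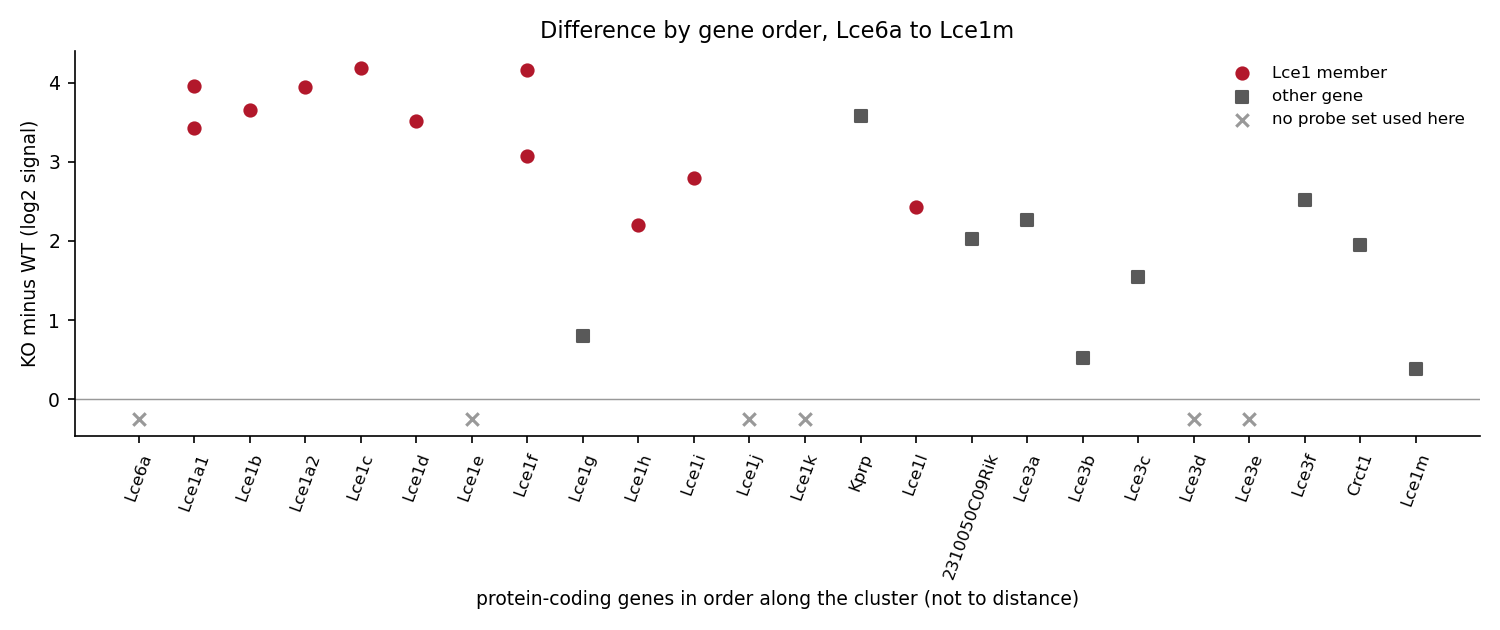
KO minus WT difference (log2) of each measured gene in its order along the Lce cluster of chromosome 3, with members and other genes marked apart and crosses for genes without a probe set used here. The Lce1 members lie between 2.20 and 4.18, Lce1g at 0.80 and Lce1m at 0.38. Lce1g and Lce1m gave little signal.

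Most measured structural genes of the same complex passed as higher in KO. Of 34 listed, 22 were measured, 18 passed as higher and 0 as lower (1.13% and 0.142% of all probe sets). The median difference was 2.08, and at an unadjusted p under 0.05 the numbers were 19 and 0. This list and the lists below were chosen with earlier results of these data known. Their counts beside those shares are therefore a description. Hrnr, which encodes the filaggrin-like protein hornerin, had 7.18, 7.07, 6.85, 7.26 and 6.81 in KO, against 2.80, 3.84, 3.87, 2.97 and 4.10 in WT. The KO arrays differed little among themselves and lay far above WT, with a difference of 3.52 (SE 0.25, adjusted p = 0.000207). The WT mean was under the receptor level, so the change is a bound, at least 7.09-fold higher in KO.

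Lor 1420183_at, for loricrin, rose by 2.95 (SE 0.39, adjusted p = 0.00228), Tchhl1, a filaggrin-like relative of trichohyalin, by 2.49 (adjusted p = 0.00115) and 2310050C09Rik, whose WT mean was also under the receptor level, was at least 3.27-fold higher (difference 2.03, adjusted p = 0.00174). Ivl, for involucrin, an early scaffold protein of the envelope, rose by 1.70 (SE 0.20, adjusted p = 0.00106). Sprr2f, a small proline-rich protein, differed by 1.03 (adjusted p = 0.287), and Smcp, whose protein is known from the sperm mitochondrial capsule, by 0.69 (adjusted p = 0.755). Neither passed.

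Of 18 genes for cross-linking enzymes and other partners of the envelope, 10 passed as higher and 0 as lower (1.13% and 0.142% of all probe sets), with a median of 1.29. At an unadjusted p under 0.05 the numbers were 15 and 0. Elf3 stood on this list and on that of the regulators below. It was not called, but it entered the unadjusted counts of both (unadjusted p = 0.0239 in limma). Tgm5, a transglutaminase that joins envelope proteins, rose by 2.10 (SE 0.21, adjusted p = 0.000531). Dsc1, a desmosomal cadherin of upper epidermis, rose by 2.42 (adjusted p = 0.000972), and Krt10, a keratin of suprabasal cells, by 2.36 (adjusted p = 0.00323). The call of Krt10 was lost without the 3 poly-A arrays (adjusted p = 0.0538). Casp14, a protease of cornifying cells, and Csta1, a cystatin, each rose by 1.55 (adjusted p = 0.00106 and 0.00656). Asprv1, a protease that processes filaggrin, differed by 1.11 (adjusted p = 0.151) and Evpl, the scaffold protein envoplakin, by 0.74 (adjusted p = 0.0581), so neither passed.

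The S100 genes, which share the complex but encode calcium-binding proteins, did not follow as a group. Of 11 measured, 2 passed as higher and 0 as lower (1.13% and 0.142% of all probe sets), with a median difference of 0.03 and the same numbers at an unadjusted p under 0.05. The 2 were S100a8, up by 1.93 (adjusted p = 0.00127), and S100a9, up by 1.89 (adjusted p = 0.000613), which encode the partners of calprotectin. S100a4 differed by -0.35 and S100a10 by -0.31, and neither passed.

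Of 32 measured regulators of late differentiation, 6 passed as higher and 0 as lower (1.13% and 0.142% of all probe sets), with a median of 0.38. At an unadjusted p under 0.05 the numbers were 17 and 0. Klf4, a transcription factor needed for the skin barrier in mice, had 10.40, 10.78, 10.70, 10.58 and 10.49 in KO, against 9.30, 9.91, 9.83, 9.60 and 9.34 in WT. The groups did not overlap, but KO 10 was not the highest KO array nor WT 5 the highest WT array. In the members KO 10 was highest in 11 of 11 probe sets and WT 5 in 10 of 11. The difference was 0.99 (SE 0.16, adjusted p = 0.00666).

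Grhl1, a grainyhead-like factor, rose by 1.01 (adjusted p = 0.00873), Cebpa by 1.08 (adjusted p = 0.00883), Hopx by 2.0 (adjusted p = 0.0129), and Gata3 by 0.67 (adjusted p = 0.0379). The call of Gata3 was lost in 8 of 10 fits that left out 1 array, with adjusted p up to 0.128, and without the 3 poly-A arrays (adjusted p = 0.180). That of Hopx was lost without KO 9 (adjusted p = 0.0537) and that of Cebpa without the 3 poly-A arrays (adjusted p = 0.0502). Prdm1, the repressor Blimp1, differed by 1.35 (adjusted p = 0.0517), and Fosb, a subunit of AP-1, by -1.06 (adjusted p = 0.887).

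Targets of NRF2, the factor of the oxidative stress response that is known in mice to raise some cornified envelope genes when the barrier is damaged, did not move in 1 direction. Of 18 measured, 1 passed as higher and 1 as lower (1.13% and 0.142% of all probe sets), and the median was 0.00. At an unadjusted p under 0.05 the numbers were 3 and 3. Me1, malic enzyme, rose by 0.98 (adjusted p = 0.00969), and Gsr, glutathione reductase, fell by 0.85 (adjusted p = 0.0179). The call of Gsr was lost without KO 9, KO 10 or WT 4, with adjusted p up to 0.0676, and without the 3 poly-A arrays (adjusted p = 0.0571). Hmox1, haem oxygenase, differed by 1.32 (adjusted p = 0.242) and Slc7a11, a cystine transporter, by 1.05 (adjusted p = 0.183).

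**Figure D5:**
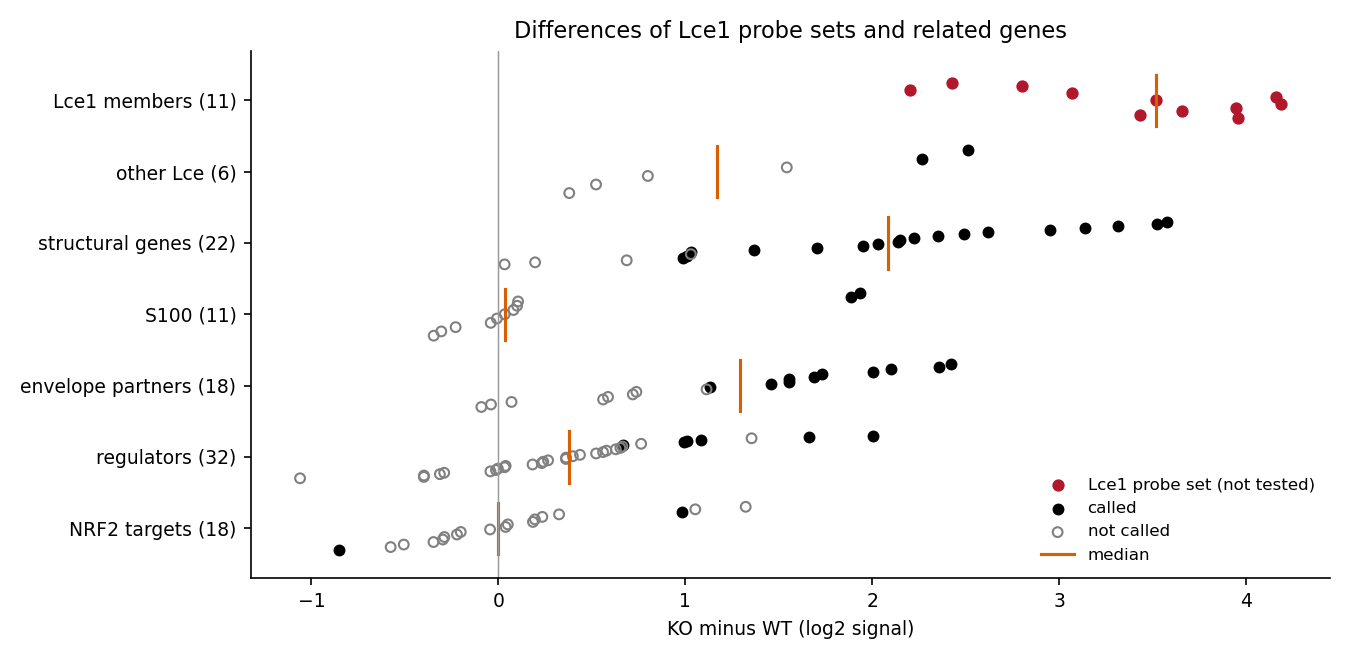
KO minus WT difference (log2) of the 11 Lce1 probe sets and of each measured gene of the lists of other Lce genes, structural genes, envelope partners, S100 genes, regulators and NRF2 targets, with called and other genes marked apart and a bar at each median. The structural genes have a median of 2.08, the S100 genes of 0.03 and the NRF2 targets of 0.00.

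Markers of keratinocytes, the labelled cell type, were present, with 10 of 10 above the receptor level and 0 called in limma, 2 being under an unadjusted p of 0.05. Krt5, a keratin of basal cells, averaged 12.73 in KO and 12.78 in WT. Fibroblast and melanocyte markers were also present, 7 of 8 and 6 of 6 above the receptor level, with 0 called and 0 under an unadjusted p of 0.05. The log2 of the markers' summed level was 10.48 to 13.08 in KO and 10.31 to 14.29 in WT for fibroblasts, highest on WT 3 and WT 4, and 11.29 to 13.04 in KO and 9.75 to 13.06 in WT for melanocytes. Of 7 myeloid and Langerhans markers 4 were above the receptor level in at least 1 group (Cd68, Csf1r, Aif1 and Cd74). In limma 0 of the 7 were called and 1 was under an unadjusted p of 0.05. That was Aif1, which averaged 3.86 in KO, under the level, and 4.89 in WT. Csf1r was highest on WT 5, and Ptprc, Cd207 and Itgam were under the level. Of 3 measured T cell markers, Cd8a was just above it, at 4.26 in KO and 4.28 in WT. Cd3e and Cd3g were under it. The part of these cells in the Lce1 values was not tested. Among the other markers of hair follicle, sebaceous, vascular, muscle, immune and Merkel cells, Tchh, which is also on the structural list, passed as higher and Piezo2 as lower. Tchh was 1 of 7 hair follicle markers, of which 3 were above the receptor level, and no other of them was called. Piezo2 was the only 1 of 4 Merkel markers above that level, and Krt20, Atoh1 and Isl1 were not called.

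Array medians were 5.02 to 5.16 and pairwise correlations 0.942 to 0.990, and WT 1 had the lowest mean correlation with the others, 0.955. Exact permutation tests of the array median, the poly-A spike-ins, the Gapdh and Actb control differences and the Y signal between KO and WT gave p of 0.159 to 0.937, and none was under 0.794 after adjustment (5 tests, n = 5 each, two-sided).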

How the data were processed

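Total RNA from 10 keratinocyte samples, 5 labelled Sgpp1-/- (KO) and 5 labelled Sgpp1+/+ (WT), was labelled from 6 µg per array, per the labels' protocols. The authors deposited log2 expression values, which they made with RMA (background correction, a common distribution for all arrays, and 1 value per probe set), per the submitters' processing notes. RMA compresses differences near the background. The number of arrays limits the precision.

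The values were used as deposited. After removal of 64 control probe sets, 45037 entered a two-sided limma fit of KO minus WT (version 3.58.1, R 4.3.3, lmFit with eBayes). Benjamini-Hochberg adjustment ran over all of them, and a probe set passed under 0.05. SEs are limma's moderated ones. Of the probe sets, 34945 had 1 gene, 932 several and 9160 none in the platform's gene table. The fit was tested on simulated data.

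The members and all lists were chosen with earlier results of these data known. Named genes are the members, every other Lce gene with a probe set, and the 5 called genes with the smallest adjusted p and the 2 others with the largest differences in each list. A gene of a list stands for its brightest probe set. Sgpp1 and the 8 genes most like the members (a mean of at least 6 in a group and an SD of deviations of at least 0.3) complete the rule. Folds are powers of the log2 difference, and where the WT mean was under the receptor level, each array's value was raised to that level. Other folds were left as they were, also where single WT values lay under it. Promoters were aligned with Biopython 1.88. Alternatives were dim-probe and per-gene filters, other eBayes settings and scalings, array number, Y signal, spike-in signal and leaving out each array.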

Additional observations from a re-analysis of the deposited data

Results flagged for a closer look

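In 5 of 114 group checks 1 array stood apart by Dixon's test for 5 values (critical value 0.71), and chance marks about 1 in 20 groups. None of the 11 Lce1 probe sets was among them. Ivl was low on WT 4, at 7.99 against 8.81 on the next array (gap over range 0.823). Smcp was high on WT 1, at 5.13 against 3.54 (0.809). Asprv1 was low on WT 1, at 9.999 against 11.39 (0.726). Fosb was high on KO 8, at 7.36 against 4.31 (0.819). The Sgpp1 probe set 1450015_x_at was low on WT 5, at 3.76 against 4.27 (0.819). WT 1 also had the lowest mean correlation with the other arrays.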

How the results depend on the processing

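Over the alternatives the 240 values of the 11 Lce1 probe sets ran from 0.58 to 5.15. As the groups did not overlap in any of them, leaving out, splitting or flooring arrays could not turn a direction, so this is no sign of stability. With array number as a covariate, the members' median was 1.55 and 0 member probe sets passed, as did 0 in each list and 0 of all probe sets (from 508 higher and 64 lower), with 1242 higher and 591 lower at an unadjusted p under 0.05. The number and genotype cannot be told apart, and the members' median SE was 0.91 in that fit, against 0.52 without the covariate. Without the 3 arrays with the highest poly-A signal, 375 probe sets passed as higher and 28 as lower, with 2 members, 0 other Lce genes (4 under an unadjusted p of 0.05), 10 structural genes, 6 partners, 3 regulators and 0 NRF2 targets as lower; fewer arrays entered, and the cause was not otherwise tested.

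Leaving out each array in turn gave 290 to 509 higher (290 without KO 9, 302 without KO 10, 316 without WT 4) and 11 to 93 lower (11 without KO 9, 19 without KO 10 or WT 4, 27 without KO 21). It gave 10 member probe sets in each fit with medians of 3.19 to 3.87. The members were picked from this comparison, so that count is no sign of stability. The fits gave other Lce genes 0 to 3 (0 without KO 9, KO 10 or WT 4), structural genes 12 to 18, partners 7 to 10, regulators 3 to 7 (3 without KO 9) and S100 genes 2 in each. NRF2 targets were 1 to 2 higher (2 without KO 23 or WT 5) and 0 to 1 lower (0 without KO 9, KO 10 or WT 4). The cause was not tested. Of 822 values of 46 other named probe sets, 716 kept their direction and side of the threshold, 82 lost the call, 17 gained it and 7 reversed. With array number as a covariate the reversed values were -0.10 for Lce1g, -0.021 for Prdm1, 2.25 for Fosb, -0.72 for Hmox1 and -0.45 for Plcxd2. Fosb was 0.11 without the 3 poly-A arrays and S100a4 ran from -0.70 without KO 23 to 0.092 without WT 3. The cause was not tested. Leaving out probe sets with both group means under the receptor level gave 11 member probe sets passed, and 561 passed as higher in all. Lce1c, both Lce1f probe sets and Lce1l stayed in only through their KO means, so nothing is read from that count. Flooring at the receptor level gave a members' median of 3.28. No paired analysis was possible because no replicate number occurs in both groups.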
